A study of Mus musculus with 9 samples.

Results

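The JAK, STAT and SOCS genes described here are 10 genes of cytokine signalling, found by symbol among the 24060 genes of the deposited expression table. They are the kinase genes Jak1, Jak2 and Jak3, the transcription factor genes Stat3, Stat4, Stat5a and Stat5b, and the feedback inhibitor genes Socs1, Socs3 and Cish. All 10 were listed, and all 10 passed the filter on low values, which kept 12115 genes. The rule used their symbols and none of their levels. The genes and the pathway lists were, however, chosen with earlier results of these data known. The shares called among them are therefore descriptions.

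RNA was sequenced from CD8 T cells of 3 lines of transnuclear mice, Rop7-I, Rop7-II and Rop7-III, whose T-cell receptors (TCRs) all recognize the Rop7 peptide of Toxoplasma gondii on H-2Ld. Each line derives from the nucleus of a single CD8 T cell, whose rearranged TCR genes its mice inherit. The study reports that secondary TCR rearrangements are common, even in homozygous mice. There some CD8 T cells and all CD4 T cells did not bind the tetramer of H-2Ld with Rop7 peptide. Per the study, the sequenced cells came from homozygous mice backcrossed for at least 6 generations to BALB/c, and unstimulated splenocytes spent a night in medium with IL-2 (10 ng per ml) before CD3+ CD8+ tetramer+ cells were sorted, to a purity of 90 to 95%. Each clone had 3 biological replicates, 9 samples in all, and the study ranks Rop7-III highest and Rop7-II lowest in self-reactivity. No antigen was added to the culture, but the tetramer used for sorting carries the Rop7 peptide. Elsewhere the study used such tetramers to stimulate these cells. Any effect of the tetramer on the levels was not tested. All 3 clones received IL-2 and no sample without it was compared, so the values are levels after a night in IL-2 and not a response to it. Each clone is 1 mouse line, so that the effect of its TCR and that of any other inherited difference cannot be told apart. The ages of the mice are not given in the sources used here.

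Cytokines such as IL-2 and IL-7 bind receptors that carry JAK kinases on their cytoplasmic tails, with JAK1 on the specific chain and JAK3 on the common gamma chain. The kinases phosphorylate each other and the receptor, STAT proteins dock there, are phosphorylated, form dimers and enter the nucleus to switch on target genes. IL-2 and IL-7 act mainly through STAT5A and STAT5B, IL-6 mainly through STAT3 and IL-12 mainly through STAT4 with JAK2 and TYK2. CISH, SOCS1 and SOCS3 are themselves products of STAT target genes and limit the signal, SOCS1 and SOCS3 by inhibiting JAK kinases. In naive CD8 T cells, IL-7 signals of this kind maintain survival.

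The promoters of the 3 feedback inhibitor genes are shown because these genes differed in pattern, with Socs1 high and Socs3 low in Rop7-III and Cish low and overlapping in every clone. The sequences are from RefSeq on GRCm38.p6, 5′ to 3′ on the strand of the gene, from 250 bases before to 50 bases after the transcription start. Capitals mark matches to TTCNNNGAA, the letters that STAT dimers prefer, or to GAAANNGAAA, letters found in sites of interferon regulatory factors, searched on both strands. The Socs1 promoter lies at chr16:10785487-10785786 (minus strand), the Socs3 promoter at chr11:117969317-117969616 (minus strand) and the Cish promoter at chr9:107296409-107296708 (plus strand).
Socs1: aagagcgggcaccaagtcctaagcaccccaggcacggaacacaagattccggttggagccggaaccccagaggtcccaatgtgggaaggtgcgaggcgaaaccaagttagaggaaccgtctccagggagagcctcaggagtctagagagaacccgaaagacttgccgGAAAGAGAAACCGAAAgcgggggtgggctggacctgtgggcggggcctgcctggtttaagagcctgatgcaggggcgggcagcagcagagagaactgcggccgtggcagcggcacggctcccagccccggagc
Socs3: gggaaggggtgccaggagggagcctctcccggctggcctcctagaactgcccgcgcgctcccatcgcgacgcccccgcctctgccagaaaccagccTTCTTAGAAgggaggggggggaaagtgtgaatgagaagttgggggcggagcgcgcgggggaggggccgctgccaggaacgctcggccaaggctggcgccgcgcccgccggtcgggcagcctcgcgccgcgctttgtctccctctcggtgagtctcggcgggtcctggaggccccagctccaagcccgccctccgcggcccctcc
Cish: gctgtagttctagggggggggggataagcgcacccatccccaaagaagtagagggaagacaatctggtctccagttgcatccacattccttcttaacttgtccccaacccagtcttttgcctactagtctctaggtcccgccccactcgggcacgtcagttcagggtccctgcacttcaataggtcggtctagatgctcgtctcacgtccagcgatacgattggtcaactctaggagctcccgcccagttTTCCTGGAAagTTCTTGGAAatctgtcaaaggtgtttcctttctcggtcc
The Cish window held 2 matches to TTCNNNGAA, TTCCTGGAA from the start site itself and TTCTTGGAA from position 12, counted from 1 at the start. The Socs3 window held 1, TTCTTAGAA, which begins 154 bases before the start. Among 32851 RefSeq promoters of this length, 8.30% held at least 1 match and 0.457% at least 2. The Socs1 window held 2 overlapping matches to GAAANNGAAA, which begin 83 and 77 bases before the start. Among the same promoters, 3.44% held at least 1 match to GAAANNGAAA and 0.225% at least 2. Of the 13 promoters listed for the 10 genes, those of Cish and Socs3 alone held the first motif, and those of Socs1 and the second promoter of Stat4 alone held the second. A match describes letters in this window and not binding. On the same build the genes themselves span chr16:10783808-10785536 (Socs1), chr11:117966079-117970336 (Socs3) and chr9:107296659-107302784 (Cish). The Socs3 window lies wholly inside the Socs3 span, so that the start used for it is not at the end of the annotated gene.

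Transcript levels are given in TPM, a share of all transcripts that divides by gene length, so that levels of different genes can be compared. Jak1 was the most abundant member in all 9 samples, at 934 to 1080 TPM, and its mean ranked 130 of the 24060 genes. Stat5b followed with a mean of 238 TPM, then Stat4 with 160, Jak3 with 131, Socs3 with 125, Stat3 with 111, Socs1 with 106, Jak2 with 103 and Stat5a with 50.9 TPM. Cish was far lower, with a mean of 2.58 TPM and rank 10275. The means from Stat4 down to Jak2 form no firm order, since the range over samples of each gene overlapped that of the next.

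**Figure D1:**
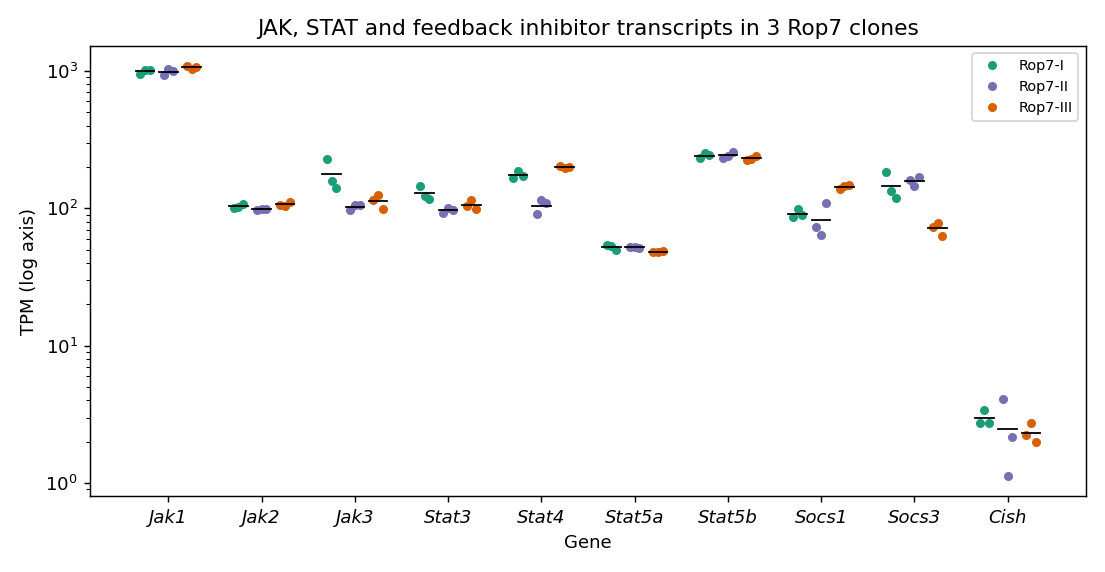
Level of each of the 10 genes in TPM on a log axis, with a point for each of the 3 samples of a clone and a bar at the clone mean. Jak1 sits between 934 and 1080 TPM in every clone, Stat4 is low in Rop7-II, Socs3 is low and Socs1 high in Rop7-III, and Cish stays under 5 TPM.

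To ask whether the clones differ in this pathway, log2(TPM + 1) was compared in all 9 samples with limma, and a gene was called at a Benjamini-Hochberg adjusted p under 0.01 over all tested genes. Of the 10 genes, 3 were called between Rop7-III and Rop7-II, against 12.3% of all tested genes. Stat4 and Socs1 were higher in Rop7-III, as were 6.39% of tested genes, and Socs3 was lower, as were 5.89%. Socs3 alone was called between Rop7-III and Rop7-I, against 4.85% of tested genes, and was lower in Rop7-III, as were 2.28%. Stat3 and Stat4 were called between Rop7-I and Rop7-II, against 7.53% of tested genes. Both were higher in Rop7-I, as were 3.67% of tested genes, and no member was lower, as were 3.85%. Across the 3 clones the F test called Stat4, Socs1 and Socs3, against 14.1% of tested genes. The call of Socs1 in this test was lost with the replicate block, with the B-cell or the myeloid marker level as a covariate, with no filter, with no trend of the spread and without any sample but Rop7-II replicate 2 or 3, while those of Stat4 and Socs3 held. With a minimum difference of 2-fold, Socs3 between Rop7-III and Rop7-II was the single remaining call in the 3 comparisons, against 1.70% of tested genes in that comparison, 1.06% between Rop7-III and Rop7-I and 0.949% between Rop7-I and Rop7-II. Rop7-II enters 2 of the comparisons and Rop7-III 2 of them, so that these are not independent of each other. The libraries are of bulk RNA, in which fewer cells of a kind and less RNA per cell cannot be told apart.

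**Figure D2:**
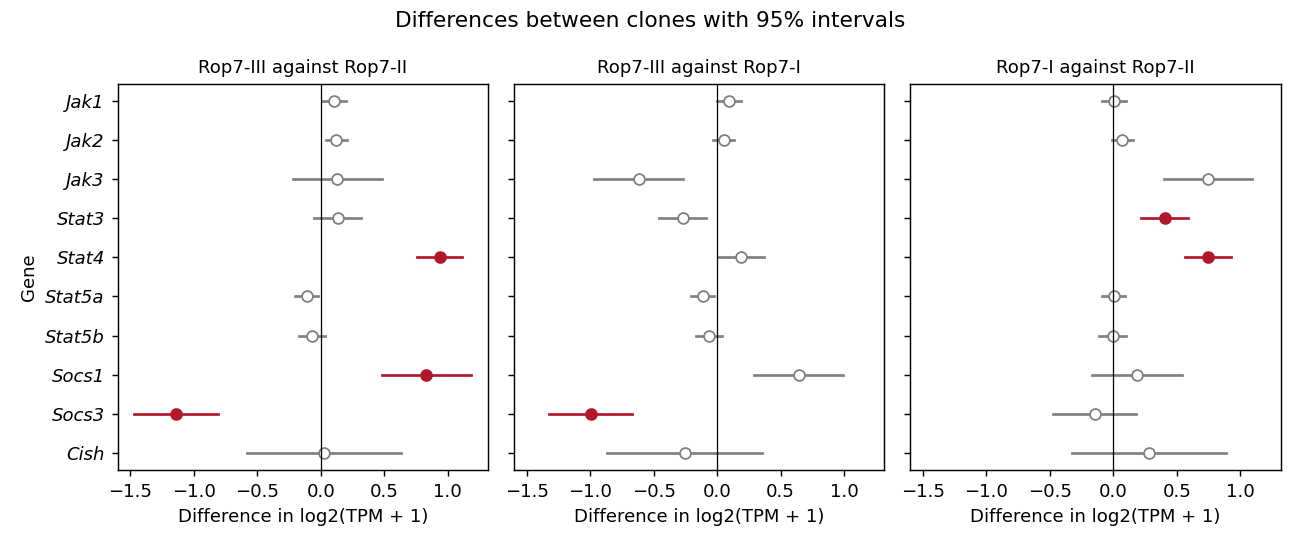
Difference between clones in log2(TPM + 1) for each gene, with its 95% interval from limma, for the 3 comparisons. Filled red points are the calls at an adjusted p under 0.01, open grey points are not called. The Stat5a, Stat5b, Jak1 and Jak2 points all lie close to 0, while Socs3 lies far below 0 in both comparisons with Rop7-III.

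The markers of other cells differed between samples. The 14 B-cell markers summed to 909 TPM in Rop7-II replicate 1, to between 161 and 405 TPM in Rop7-I samples and to between 66.8 and 135 TPM in the other 5 samples. The 12 myeloid markers summed to 685 TPM in Rop7-II replicate 1, to 78.4 and 256 TPM in the other Rop7-II samples, to 58.7 to 139 TPM in Rop7-I and to 39.6 to 87.0 TPM in Rop7-III samples. All markers of both lists were highest in Rop7-II replicate 1. The 6 CD4 T-cell markers summed to 59.6 to 83.0 TPM over all samples, and the 6 NK-cell markers to at most 6.04 TPM. Of the CD4 list, 3 markers were highest in Rop7-II replicate 1, among them Cd4 at 6.75 TPM. Cd40lg was instead higher in all 3 Rop7-III samples, at 2.90 to 3.70 TPM, than elsewhere, at 0 to 0.70 TPM. The 6 erythroid markers summed to 1408 TPM in Rop7-I replicate 2 and to 225 and 285 TPM in the other Rop7-I samples, all above the 15.2 to 117 TPM of Rop7-II, and to 69.0 to 286 TPM in Rop7-III. The 7 markers of CD8 T cells, which include Cd8a and Cd3e, summed to 7761 to 8168 TPM in Rop7-II, above the 7270 to 7515 TPM of Rop7-I and the 7289 to 7469 TPM of Rop7-III. Their part and that of the erythroid, CD4 T-cell and NK-cell markers in the differences between clones was not tested.

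Among the kinase genes, Jak1 (chr4:101151974-101265282) and Jak2 (chr19:29251803-29313095) differed little between clones. Jak1, the kinase shared by most cytokine receptors of T cells, stood at 957, 1012 and 1013 TPM in Rop7-I replicates 1 to 3, at 934, 1037 and 997 TPM in Rop7-II and at 1080, 1032 and 1077 TPM in Rop7-III. The Rop7-III values overlapped those of Rop7-II but lay above all 3 of Rop7-I, a log2 difference of 0.10 with a 95% interval of 0.00 to 0.19 (adjusted p = 0.171). Jak2, the kinase of the interferon gamma and IL-12 receptors, ranged from 97.8 to 112 TPM. It was higher in all 3 Rop7-III than in all 3 Rop7-II samples by 0.12 on the log2 scale (95% interval 0.04 to 0.21, adjusted p = 0.0398), which is not a call. These narrow intervals leave room for at most a 1.15-fold difference in either gene between any pair of clones, on the log2(TPM + 1) scale.

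Jak3, which pairs with the common gamma chain, was the kinase gene with the widest spread. It stood at 230, 158 and 142 TPM in Rop7-I replicates 1 to 3, at 97.2, 106 and 105 TPM in Rop7-II and at 114, 125 and 99.6 TPM in Rop7-III. All 3 Rop7-I samples lay above the other 6, and Rop7-I replicate 1 stood well above the other Rop7-I samples. Jak3 was above its Rop7-II level in Rop7-I by 0.75 on the log2 scale (standard error 0.15, adjusted p = 0.0109), just outside the limit. Without Rop7-I replicate 1 it was smaller, 0.54, and inside the limit (adjusted p = 0.00853). Against Rop7-III the log2 difference was -0.62 for Rop7-III (adjusted p = 0.0319). Insl3, an insulin-like peptide gene, lies wholly inside the Jak3 gene on chromosome 8 (Jak3 from 71676383 to 71690577 and Insl3 from 71689252 to 71690577 on GRCm38). Insl3 was listed at 58.8 ± 12.8 TPM (SD, n = 3) in Rop7-I, 28.3 ± 2.50 in Rop7-II and 42.5 ± 4.35 in Rop7-III, and was called between Rop7-I and Rop7-II (log2 difference 1.01, adjusted p = 0.00137). The reads carry no strand, and 5.51% of 100-base windows of the annotated Jak3 transcripts also occur in Insl3 transcripts. Reads from such windows fit both genes. The windows are from GENCODE transcripts, while the authors counted on RefSeq genes, so the share of such reads in the deposited values is not known. The part of such reads in the Jak3 difference was not tested.

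Among the STAT genes, Stat4 differed most. STAT4 is the main transcription factor of the IL-12 response and drives interferon gamma production. Stat4 stood at 168, 188 and 172 TPM in Rop7-I replicates 1 to 3, at 90.2, 114 and 110 TPM in Rop7-II and at 203, 196 and 201 TPM in Rop7-III. The 3 clones did not overlap, with Rop7-II lowest and Rop7-III highest. Stat4 was higher in Rop7-III by 1.91-fold over Rop7-II (95% interval 1.69 to 2.17, adjusted p = 6.63e-05) and 1.68-fold higher in Rop7-I than in Rop7-II (95% interval 1.48 to 1.90, adjusted p = 3.78e-04). The step from Rop7-I to Rop7-III was 1.14-fold and not called (95% interval 1.00 to 1.29, adjusted p = 0.163). Rop7-II replicate 1, which had the most B-cell and myeloid marker RNA, was the lowest sample. Without it both calls held, with log2 differences of 0.83 (adjusted p = 1.46e-05) and 0.65 (adjusted p = 6.92e-05).

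Stat4 lies on chromosome 1 from 51987106 to 52107189. Of the 100-base windows of annotated Stat4 transcripts, 18.0% also occur in transcripts of another annotated gene, Gm28177. Reads from such windows fit both genes. As for Jak3, the windows are from GENCODE transcripts and the counts on RefSeq genes, so the share of such reads is not known. Their part in the Stat4 differences was not tested.

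Stat3, the main STAT of IL-6, IL-10 and IL-21, stood at 147, 122 and 118 TPM in Rop7-I replicates 1 to 3, at 92.4, 99.9 and 98.0 TPM in Rop7-II and at 104, 115 and 99.7 TPM in Rop7-III. The Rop7-I samples stood above all 6 others, as for Jak3, and replicate 1 was again the highest. The difference between Rop7-I and Rop7-II was 1.32-fold (95% interval of the log2 difference 0.22 to 0.59), with an adjusted p of 0.00974 close to the limit. The call was lost when any 1 of the 9 samples was left out, with adjusted p between 0.0115 and 0.0248 and log2 differences between 0.31, without Rop7-I replicate 1, and 0.47, without Rop7-I replicate 3. Across the 3 clones the F test gave an adjusted p of 0.0134.

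The STAT5 genes, through which IL-2 and IL-7 mainly act, were close to level. Stat5a stood at 54.2, 53.2 and 49.4 TPM in Rop7-I replicates 1 to 3, at 52.4, 52.3 and 51.5 TPM in Rop7-II and at 48.3, 47.8 and 48.5 TPM in Rop7-III. The 3 Rop7-III samples lay below the other 6, by 0.11 on the log2 scale from either clone (adjusted p = 0.0777 against Rop7-II and 0.0998 against Rop7-I), and neither difference was called. Stat5b ranged from 224 to 256 TPM, with overlap between all clones, and its log2 differences were -0.07, -0.07 and -0.01 in the 3 comparisons. The 95% intervals of the STAT5 genes ran from 0.87-fold at the lowest to 1.07-fold at the highest over the 3 comparisons. Stat5b exceeded Stat5a in every sample, by 4.26-fold to 4.97-fold, with overlapping ratios between clones. Both genes and Stat3 form a cluster of 158864 bases on chromosome 11 (chr11:100780731-100939594), with 346 bases between Stat5b and Stat5a and 1636 bases between Stat5a and Stat3, and of the 3 only Stat3 was called in any comparison. The STAT5 genes are close copies, and 3.44% of 100-base windows of Stat5a transcripts in GENCODE also occur in Stat5b, so that reads from such windows fit both genes.

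The feedback inhibitors Socs1 and Socs3 moved in opposite directions in Rop7-III T cells. Socs3, which acts mainly on receptors that contain gp130, stood at 184, 134 and 119 TPM in Rop7-I replicates 1 to 3, at 162, 147 and 168 TPM in Rop7-II and at 73.7, 78.8 and 62.5 TPM in Rop7-III. Rop7-III did not overlap the other clones, and its samples were the 3 lowest. Against Rop7-II, Socs3 was 2.20-fold lower in Rop7-III (log2 difference -1.14, standard error 0.15, adjusted p = 6.39e-04) and 1.99-fold lower than in Rop7-I (adjusted p = 0.00278). Between Rop7-I and Rop7-II the log2 difference was -0.15 (95% interval -0.47 to 0.18, adjusted p = 0.544). The difference from Rop7-II was as large without Rop7-II replicate 1, at -1.13 (adjusted p = 0.00173). The call against Rop7-I was lost without Rop7-III replicate 1 (-1.02, adjusted p = 0.0112) and without Rop7-III replicate 3 (-0.90, adjusted p = 0.0141).

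Socs1, which restrains the response to interferon gamma and to common gamma chain cytokines, stood at 86.9, 98.2 and 89.8 TPM in Rop7-I replicates 1 to 3, at 73.1, 64.4 and 109 TPM in Rop7-II and at 138, 145 and 147 TPM in Rop7-III. The 3 highest samples were those of Rop7-III, while Rop7-II samples were widely spread and those of Rop7-I lay within their range. Socs1 was higher in Rop7-III by 1.78-fold over Rop7-II (95% interval 1.39 to 2.27, adjusted p = 0.00495). That call was lost without Rop7-II replicate 1 (adjusted p = 0.0131) and without Rop7-III replicate 1, 2 or 3 (0.0170, 0.0202 and 0.0206), with log2 differences of 0.77 to 0.86. With the myeloid marker level as a covariate the call against Rop7-II was lost as well (log2 difference 0.92, adjusted p = 0.0339). No filter, no trend of the spread and a fit of only the 2 clones lost it too (adjusted p = 0.0114, 0.0136 and 0.0182). Against Rop7-I the difference was 1.56-fold and not called (95% interval 1.22 to 1.99, adjusted p = 0.0284). Without Rop7-II replicate 3, the sample that stood apart within Rop7-II, it was called at the same size (adjusted p = 4.67e-04), since all samples share 1 estimate of the spread, and the log2 difference between Rop7-I and Rop7-II was 0.41 (adjusted p = 0.00581) in place of 0.19 (adjusted p = 0.455).

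The order of the SOCS genes was reversed in Rop7-III. The level of Socs1 divided by that of Socs3 was 0.472, 0.735 and 0.754 in Rop7-I replicates 1 to 3, 0.452, 0.439 and 0.652 in Rop7-II and 1.88, 1.84 and 2.35 in Rop7-III. Socs3 was thus the more abundant transcript in all 6 samples of Rop7-I and Rop7-II, and Socs1 in all 3 of Rop7-III. This ratio was chosen after the values were seen and is a description.

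**Figure D3:**
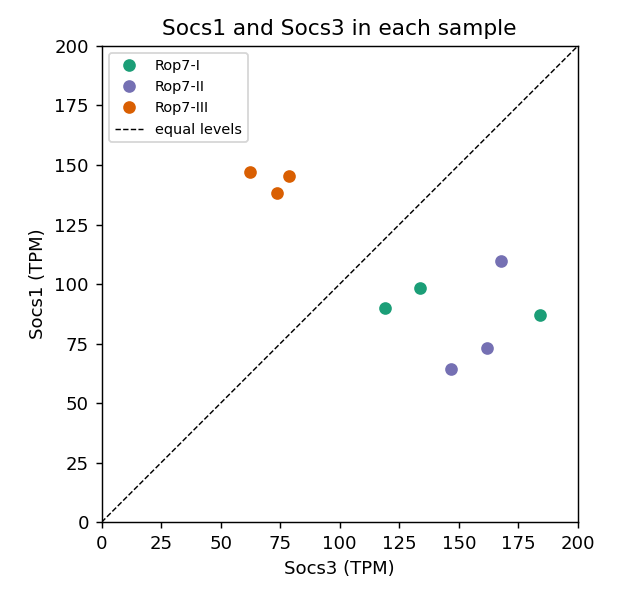
Level of Socs1 against that of Socs3 in TPM, with a point per sample and a dashed line where both are equal. The 3 Rop7-III samples lie above the line, at ratios of 1.84 to 2.35, and the 6 samples of the other clones lie below it, at 0.439 to 0.754.

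Cish, a target of STAT5 that limits signals of IL-2 and of the TCR, had a low transcript level. It stood at 2.74, 3.41 and 2.72 TPM in Rop7-I replicates 1 to 3, at 4.08, 1.13 and 2.17 TPM in Rop7-II and at 2.22, 2.73 and 2.00 TPM in Rop7-III. The clones overlapped, and both the highest and the lowest value were in Rop7-II. The highest was in Rop7-II replicate 1, where B-cell and myeloid markers were also highest. The log2 differences of 0.02, -0.26 and 0.28 in the 3 comparisons had adjusted p between 0.526 and 0.959. With the myeloid marker level as a covariate the differences of Rop7-III and Rop7-I from Rop7-II were 0.66 and 0.67, and with that of B-cell markers the difference of Rop7-III from Rop7-I was 0.15. None was called in any of 21 alternative fits. In the fit without a covariate the interval between Rop7-III and Rop7-II ran from 0.67-fold to 1.55-fold, wider than for any other member in that comparison. Il2ra, which encodes the chain that gives the IL-2 receptor its high affinity and is another STAT5 target, was as low, at 1.55 to 4.79 TPM, and was again highest in Rop7-II replicate 1. In contrast Il2rb and Il2rg, the signalling chains of the receptor, stood at 75.9 to 95.8 TPM and at 585 to 665 TPM. Cish shares 6.75% of its 100-base windows with the annotated genes Gm17041 and Gm17040.

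The samples of the clones did not overlap for 5 of the 10 genes between Rop7-III and Rop7-II, against 40.7% of all tested genes, for 7 between Rop7-III and Rop7-I, against 38.2%, and for 4 between Rop7-I and Rop7-II, against 35.0%. The median log2 difference over the 10 genes was 0.11, -0.09 and 0.13 in these comparisons, beside -0.02, -0.0035 and -0.01 over all tested genes.

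The other genes of the pathway were taken from 5 lists of 47 genes, of which 40 were tested. The 6 cytokine genes, Il2, Il4, Il6, Il7, Il15 and Il21, did not pass the filter, with at most 0.75 TPM in any sample, and neither did Lif. Between Rop7-III and Rop7-II 6 of the 40 were called, all higher in Rop7-III, which is 15.0% beside 12.3% of all tested genes. Between Rop7-III and Rop7-I 1 was higher and 1 was lower, 5.00% beside 4.85%. Both shares are near that of all genes. Between Rop7-I and Rop7-II 7 were higher and 1 was lower, 20.0% beside 7.53%, and 5 were called with the replicate block. The median log2 differences of the 40 genes were -0.01, 0.01 and -0.01.

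Of the 10 receptor chains, 4 were called between Rop7-III and Rop7-II, all higher in Rop7-III, beside 12.3% of all tested genes called and 6.39% called higher. Il7r, the IL-7 receptor chain that naive T cells need for survival, stood at 317 ± 16.5 TPM (SD, n = 3) in Rop7-II, 511 ± 32.5 in Rop7-I and 749 ± 20.7 in Rop7-III, and was called in all 3 comparisons (log2 differences 1.24, 0.55 and 0.69). Il4ra, the IL-4 receptor chain, stood at 88.8 ± 12.8 TPM in Rop7-II, 177 ± 17.7 in Rop7-I and 177 ± 6.74 in Rop7-III, and was called against Rop7-II for both (adjusted p = 1.91e-04 and 3.26e-04). Il6ra and Il6st, the chains of the IL-6 receptor, exceeded their Rop7-II levels in Rop7-III, Il6ra with a log2 difference of 0.52 (adjusted p = 0.00112) and Il6st with 0.28 (adjusted p = 0.00953). With the myeloid marker level as a covariate both calls were lost, Il6ra at 0.36 (adjusted p = 0.0228) and Il6st at 0.13 (adjusted p = 0.195). The call of Il6st was also lost without any Rop7-I or Rop7-III sample or without Rop7-II replicate 3 (adjusted p = 0.0149 to 0.0349).

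Among the 15 other attenuators Socs5 stood at 14.8 TPM in Rop7-II, 20.4 in Rop7-I and 22.8 in Rop7-III, and was called for Rop7-III (log2 difference 0.60, adjusted p = 4.12e-04) and Rop7-I (0.44, adjusted p = 0.00324, up to 0.0158 without a sample) against Rop7-II. Pias4, a SUMO ligase that binds STAT proteins, was lower in Rop7-I by a log2 difference of -0.17 from Rop7-II (adjusted p = 0.00891), a call lost without any 1 of 8 samples (adjusted p = 0.0151 to 0.0352). The phosphatase genes Ptpn1, Ptpn2, Ptpn6, Ptpn11 and Ptprc were not called in any comparison.

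Of 12 tested STAT5 target genes, 4 were called between Rop7-I and Rop7-II, all higher in Rop7-I, beside 7.53% of all tested genes called and 3.67% called higher. In each of the other comparisons 1 of the 12 was called, 8.33% beside 12.3% against Rop7-II and 4.85% against Rop7-I. The 4 were Pim2, a survival kinase (0.90 on the log2 scale, adjusted p = 0.00280), Bcl6, a repressor that STAT5 represses (0.78, adjusted p = 0.00332), Myc (0.48, adjusted p = 0.00465) and Bcl2, which encodes a protein that blocks apoptosis (0.46, adjusted p = 0.00828). Each of these calls was lost when certain samples were left out, that of Bcl2 for any of the 9 and that of Pim2 for Rop7-I replicate 2, with a highest adjusted p of 0.0103 for Pim2, 0.0183 for Bcl6, 0.0230 for Myc and 0.0217 for Bcl2. Bcl2 was also called between Rop7-III and Rop7-II, higher in Rop7-III (0.52, adjusted p = 0.00335, up to 0.0171 without a sample and 0.0560 with the myeloid covariate), and Bcl6 between Rop7-III and Rop7-I, lower in Rop7-III (-1.17, adjusted p = 5.64e-04). Pim1, a kinase gene that STAT5 induces, stood at 233 to 280 TPM and was not called in any comparison.

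**Figure D4:**
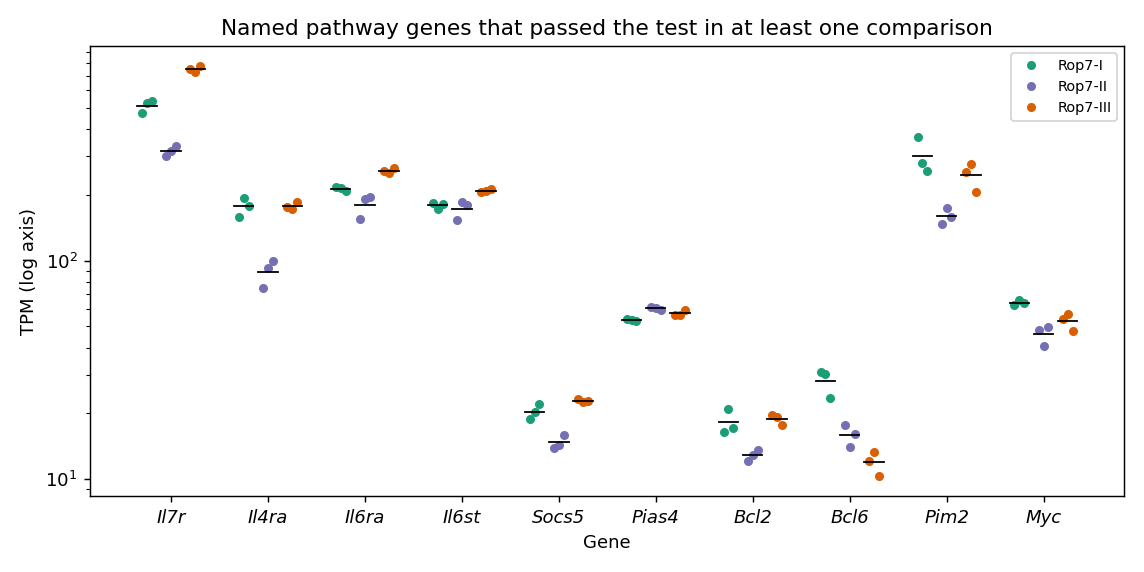
Level in TPM on a log axis of 10 genes of the pathway lists called in at least 1 comparison, with a point per sample and a bar at the clone mean. Il7r steps up from Rop7-II over Rop7-I to Rop7-III, Il4ra is low in Rop7-II alone, and Bcl6 is highest in Rop7-I.

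The genes whose log2(TPM + 1) followed that of a called member most closely over the 9 samples were found by Pearson's r, as a description. For Stat4 they were Pkp4, Dapl1 and Smpdl3a (r = 0.992, 0.992 and 0.990). Dapl1 stood at 42.3 TPM in Rop7-II, 241 in Rop7-I and 349 in Rop7-III T cells, a wider range than that of Stat4 in the same order. For Socs3 they were Uba7, Psme1 and Lsg1 (r = 0.989, 0.970 and 0.969), for Socs1 they were Sox4, Usp3 and Atad2 (r = 0.968, 0.964 and 0.963), and for Stat3 they were Rpl36al, Magi3 and Zfp36 (r = 0.97, 0.96 and 0.96). Uba7, the activating enzyme for ISG15, stood at 87.9 TPM in Rop7-I, 89.0 in Rop7-II and 64.8 in Rop7-III.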

How the data were processed

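Sorted CD8 T cells of 3 clones with 3 biological replicates each were compared. Per the study's methods, RNA was sequenced as single-end reads of 100 bp without strand, and the authors counted reads per gene with RSEM 1.2.11 on mm10 RefSeq genes and deposited values in TPM. Depth cannot be read from the deposited TPM, and intervals here cover the spread between samples. The authors used DESeq2 1.8.1 on counts, which does not apply to TPM. Here log2(TPM + 1) of the 12115 genes with a maximum TPM over 1 was compared with limma 3.58.1 in R 4.3.3, with all 9 samples, a trend of the spread on the mean and no pairing, and called at a Benjamini-Hochberg adjusted p under 0.01. The script was tested on simulated data. Fold changes on this scale understate those of low genes. The labels call the replicates biological but do not say whether each is a separate animal. Clones were taken from the labels.

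The members and lists were chosen with earlier results of these data known. A result on 1 further gene is not reported here, and the lists and counts of pathway genes leave it out. The named genes were all members, pathway genes called in any comparison (up to 5 a list) and the 3 genes most alike to each called member. Insl3, Il2ra, Il2rb, Il2rg, Pim1, Cd4 and Cd40lg, and genes named only as not called, were named after their values were seen. Positions and promoters are from RefSeq on GRCm38, the same assembly as mm10, and shared 100-base windows from GENCODE M21 transcripts. The alternatives tried were other pseudocounts, filters and scalings, other fits, a marker covariate, other thresholds and leaving out each sample.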

Additional observations from a re-analysis of the deposited data

How the results depend on the processing

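The calls of Stat4 and of Socs3 between Rop7-III and Rop7-II and of Stat4 between Rop7-I and Rop7-II held under all 21 alternatives that refit the genes. The call of Socs1 between Rop7-III and Rop7-II held under 13 of 21, that of Socs3 between Rop7-III and Rop7-I under 19 and that of Stat3 under 4. The TPM hold no depth, so that what depth limits, mainly Cish at 1 to 4 TPM, cannot be stated.

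Members called between Rop7-I and Rop7-II fell from 2 to 1 with no filter, quantile normalization, samples shifted to 1 median, no trend, a fit of only the 2 clones, sample weights, the replicate block or the myeloid marker level as a covariate, an alternative chosen after seeing the data, with Stat3 lost each time, and to 0 with a 2-fold minimum. The count rose to 3, with Jak3 added, when every sample had to reach a TPM of 1. It was also 3 with the B-cell covariate or at an adjusted p under 0.05. Jak3 was called between Rop7-I and Rop7-II in 4 of the 21 alternatives that refit the genes. The replicate block gave an adjusted p of 0.0198 for Stat3. The labels do not say what the numbers share, and same-numbered samples of different clones deviated together in 1 of 9 pairs (r over 0.1, range -0.388 to 0.106), so that the numbers were not taken to pair samples. Between Rop7-III and Rop7-I the member count of 1 became 2 with sample weights or a fit of only the 2 clones, 3 at an adjusted p under 0.05 and 0 with a 2-fold minimum, which between Rop7-III and Rop7-II left 1 of 3. Across clones 4 members were called when every sample had to reach a TPM of 1, with Jak3 added, and 5 had an adjusted p under 0.05. Without 1 sample the member counts ran from 2 to 3 between Rop7-III and Rop7-II, from 0 to 2 between Rop7-III and Rop7-I, from 1 to 2 between Rop7-I and Rop7-II and from 2 to 3 across clones. Where 2 were called between Rop7-I and Rop7-II without 1 sample, the second beside Stat4 was Jak3 or Socs1 and not Stat3. The replicate block left 2 across clones, with Socs1 lost.

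Pathway genes called between Rop7-III and Rop7-II were 6, against 3 with the myeloid covariate, 11 at 0.05, 1 with a 2-fold minimum and 4 to 8 without 1 sample. Between Rop7-III and Rop7-I they were 2, against 5 with sample weights, 4 with only the 2 clones, 6 at 0.05, 1 with a 2-fold minimum and 2 to 4 without 1 sample. Between Rop7-I and Rop7-II they were 8, against 5 with no trend, 3 with only the 2 clones and 5 with the replicate block. They were 4 with the myeloid covariate, 12 at 0.05, 0 with a 2-fold minimum and 3 to 7 without 1 sample.

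Over all genes, calls between Rop7-III and Rop7-II were 1488, against 939 with only the 2 clones, 548 with the myeloid covariate, 3041 at 0.05, 206 with a 2-fold minimum and 834 to 1315 without 1 sample. Between Rop7-III and Rop7-I they were 588, against 1062 with sample weights, 926 with only the 2 clones, 373 with the replicate block, 1586 at 0.05, 128 with a 2-fold minimum and 258 to 830 without 1 sample. Between Rop7-I and Rop7-II they were 912, against 600 with no trend, 433 with only the 2 clones, 606 with the myeloid covariate, 2163 at 0.05, 115 with a 2-fold minimum and 416 to 875 without 1 sample. The cause of these shifts was not tested.

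Log2 differences that changed sign were all of members not called in that comparison. Between Rop7-I and Rop7-II they were Stat5a (-0.0020 with a common median and -0.0038 with the myeloid covariate), Stat5b (0.019 with quantile normalization and 0.00010 with the B-cell covariate) and Jak1 (-0.013 with sample weights and -0.029 with the myeloid covariate). With the myeloid covariate Jak3 (-0.12) and Stat3 (-0.018) turned between Rop7-III and Rop7-II, and with the B-cell covariate Cish (0.15) turned between Rop7-III and Rop7-I. Without 1 sample, the range between Rop7-I and Rop7-II was -0.022 to 0.043 for Stat5a, -0.034 to 0.034 for Stat5b, -0.033 to 0.042 for Jak1 and -0.025 to 0.60 for Cish, and that of Cish between Rop7-III and Rop7-II was -0.28 to 0.35.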
